A study of Homo sapiens with 6 samples.

Results

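The genes described here encode the nuclear subunits of the mitochondrial oxidative phosphorylation machinery. They were chosen by name, from array probe sets annotated with a single gene symbol beginning NDUFA, NDUFB, NDUFC, NDUFS, NDUFV, SDHA to SDHD, UQCR, CYC1, COX4I, COX5, COX6, COX7, COX8 or ATP5, without the NDUFAF assembly factors. The rule matched 83 symbols. Of these, 5 were pseudogenes or noncoding RNAs and 1, ATP5IF1, encodes an inhibitor and not a subunit, which left 77 subunit genes of 19775 genes with such a probe set. They comprised 33 genes of complex I, 3 of complex II, 7 of complex III, 17 of complex IV and 17 of complex V. Each gene was read by its brightest probe set, and 70 of the 77 reached a log2 signal of 5 on at least 2 of 6 arrays and were tested, among 10459 tested genes in all. No measured difference between cultures entered the choice.

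The study compared 3 cultures of the neuroblastoma cell line SKNAS, with 2 Affymetrix arrays per culture. iCSC cells received 2.5 uM 5AdC, which the study's title counts among epigenetic modifiers, for 5 days while attached, and then grew as spheroids without serum. Sphere cells grew as spheroids without serum and had no pretreatment, and Monolayer cells grew attached with no pretreatment. The labels name 1 line for all cultures and leave unsaid whether paired arrays of a culture go back to separate dishes. Large differences in marker genes and in whole chromosomes, given below, lie between the cultures, and whether all arrays hold cells of the same genotype was not tested. The p-values therefore reflect array-to-array spread alone, which may be technical, and the number of arrays limits the precision.

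The cultures stood far apart over all tested genes. Within a culture, Pearson's r between arrays was 0.984 for iCSC, 0.992 for Sphere and 0.996 for Monolayer, against 0.729 to 0.859 between arrays of different cultures. Of 11 sympathetic neuroblast markers, 9 exceeded log2 5 on both iCSC arrays, 10 on both Sphere arrays and 4 on both Monolayer arrays. Their summed log2 levels were 75.8 to 80.3 in iCSC, 104.5 to 109.3 in Sphere and 53.5 to 56.0 in Monolayer. Of 10 tested, 9 were lower and 0 higher in iCSC against Sphere (median log2 fold change -2.42). In Sphere against Monolayer 9 were higher and 0 lower, and in iCSC against Monolayer 6 were higher and 2 lower. Summed log2 levels of 5 fibroblast markers were 47.1 to 47.5 in iCSC, 46.2 to 46.7 in Sphere and 29.3 on both Monolayer arrays. The close sums of iCSC and Sphere hold opposite changes. All 5 fibroblast markers were called in iCSC against Sphere, 2 higher and 3 lower, with log2 fold changes from -2.96 to 7.91. Sums of 5 muscle markers were 21.8 to 23.0 in iCSC, 12.4 to 12.7 in Sphere and 11.2 in Monolayer. Those of 4 epithelial markers were 16.9 to 17.9, 19.2 to 19.3 and 27.5 to 27.8 in the same order. Of 6 tested markers of the mesenchymal neuroblastoma state, 5 were higher and 1 lower in iCSC against Sphere. In Sphere against Monolayer 1 was higher and 5 were lower, and in iCSC against Monolayer 2 were higher and 1 lower. PTPRC, a leukocyte gene, gave 2.85 and 2.87 in iCSC, 12.42 and 12.52 in Sphere, and 11.64 and 11.84 in Monolayer, while the other 6 leukocyte markers with a probe set lay under log2 5 on all arrays. The difference between 3' and 5' probe sets of ACTB, a measure of RNA integrity, was 1.47 and 1.40 log2 in iCSC. It was 1.22 and 1.21 in Sphere, and 1.25 and 1.16 in Monolayer. The same difference for GAPDH was 0.169 and 0.204 in iCSC, 0.122 and 0.148 in Sphere, and 0.154 and 0.165 in Monolayer. Whether these features bear on the subunit values was not tested, and in bulk RNA a shift in the mix of cells cannot be told apart from a shift in RNA per cell.

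Oxidative phosphorylation passes electrons from NADH (at complex I) or succinate (at complex II) through ubiquinone to complex III, from there through cytochrome c to complex IV, and finally to oxygen. Complexes I, III and IV pump protons across the inner mitochondrial membrane, and complex V, the ATP synthase, lets them flow back through a rotating ring of c subunits to make ATP. Most subunits are encoded in the nucleus, and the transcription factor NRF1, named for its role in respiratory genes, binds a GC-rich palindrome in many of their promoters.

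The promoters of 4 subunit genes are shown because each holds the NRF1 motif, spelled CGCANGCGC and searched on both strands with overlapping matches counted as 1, while the 4 genes did not move alike. The 250 bases before the RefSeq transcription start were read from the RefSeq table of build GRCh38.p14, 5′ to 3′ on the gene's own strand, with the motif in capitals. SDHA, the flavoprotein of complex II, starts after chr5:218070-218319 on the plus strand. NDUFA3, an accessory subunit of complex I, follows chr19:54102605-54102854 on the plus strand. UQCRC1, a core protein of complex III, lies on the minus strand next to chr3:48609647-48609896. NDUFA12, an accessory subunit of complex I, lies on the minus strand next to chr12:95003698-95003947.
SDHA: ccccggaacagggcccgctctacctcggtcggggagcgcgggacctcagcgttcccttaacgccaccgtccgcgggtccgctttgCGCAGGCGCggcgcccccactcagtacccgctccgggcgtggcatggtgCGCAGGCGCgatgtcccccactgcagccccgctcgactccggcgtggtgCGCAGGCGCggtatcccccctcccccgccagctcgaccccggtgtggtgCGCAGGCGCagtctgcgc
NDUFA3: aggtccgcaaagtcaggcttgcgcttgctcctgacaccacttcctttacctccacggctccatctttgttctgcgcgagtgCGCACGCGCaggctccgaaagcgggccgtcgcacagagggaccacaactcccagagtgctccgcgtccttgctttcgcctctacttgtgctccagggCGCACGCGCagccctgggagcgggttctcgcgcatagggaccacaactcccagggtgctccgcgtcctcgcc
UQCRC1: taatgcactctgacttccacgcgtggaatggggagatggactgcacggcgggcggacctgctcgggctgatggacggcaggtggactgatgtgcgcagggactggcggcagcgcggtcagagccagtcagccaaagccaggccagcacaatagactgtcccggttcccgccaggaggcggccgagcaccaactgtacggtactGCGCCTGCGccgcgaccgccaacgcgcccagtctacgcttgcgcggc
NDUFA12: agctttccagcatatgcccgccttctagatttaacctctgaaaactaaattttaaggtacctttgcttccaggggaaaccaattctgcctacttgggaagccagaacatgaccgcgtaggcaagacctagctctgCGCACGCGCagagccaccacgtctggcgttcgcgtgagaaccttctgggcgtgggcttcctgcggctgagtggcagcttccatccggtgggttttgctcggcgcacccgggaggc

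SDHA carried 4 copies of the motif, beginning 165, 116, 67 and 18 bases before the start. NDUFA3 carried 2, beginning 169 and 72 bases before the start, and UQCRC1 and NDUFA12 carried 1 each, at 47 and 115 bases. A promoter was found for 61 of the 70 tested subunits, and 19 of them (31.1%) held the motif, against 14.5% of 8440 tested genes and 9.75% of 15843 protein-coding genes with a promoter of this length. With a further G required before it, the shares were 21.3%, 11.6% and 7.65%. Among subunits with a promoter, the motif as spelled was present in 4 of 11 that were higher in Sphere against Monolayer, in 9 of 21 that were lower and in 6 of 29 that were not called. Carriers of the motif thus fell into all 3 classes. The ETS core CCGGAAG stood in 24.6% of subunit promoters and 17.1% of those of tested genes, the YY1 core AAGATGG in 6.56% and 3.6%, the SP1 box GGGCGG in 57.4% and 68.9%, and CCAAT in 29.5% and 35.7%. The motifs were counted independently of each other, and a match describes letters in this window only.

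Taken as a family and read by their brightest probe sets, the subunits were strongly expressed and moved little. On the 6 arrays their medians lay between 12.29 and 12.46 on the log2 scale, and the lowest tested subunit stood at 8.42. The signal ranged over less than 0.5 log2 across the 6 arrays for 34 of the 70 subunits, and over at least 1 log2 for 5 of them, compared with 5066 of all 10459 genes. The median absolute log2 difference between cultures was 0.15 in iCSC against Sphere, 0.26 in Sphere against Monolayer and 0.28 in iCSC against Monolayer for the subunits, against 0.34, 0.53 and 0.49 for all genes tested. No call at an adjusted p under 0.05 was made in any comparison for 21 subunits, and 49 were called in at least 1. These counts, and that of the 34 subunits under 0.5 log2, were not taken over all genes and describe the subunits alone. All genes tested were not matched to the subunits for signal level, and whether that level bears on the size of the changes was not tested.

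**Figure D1:**
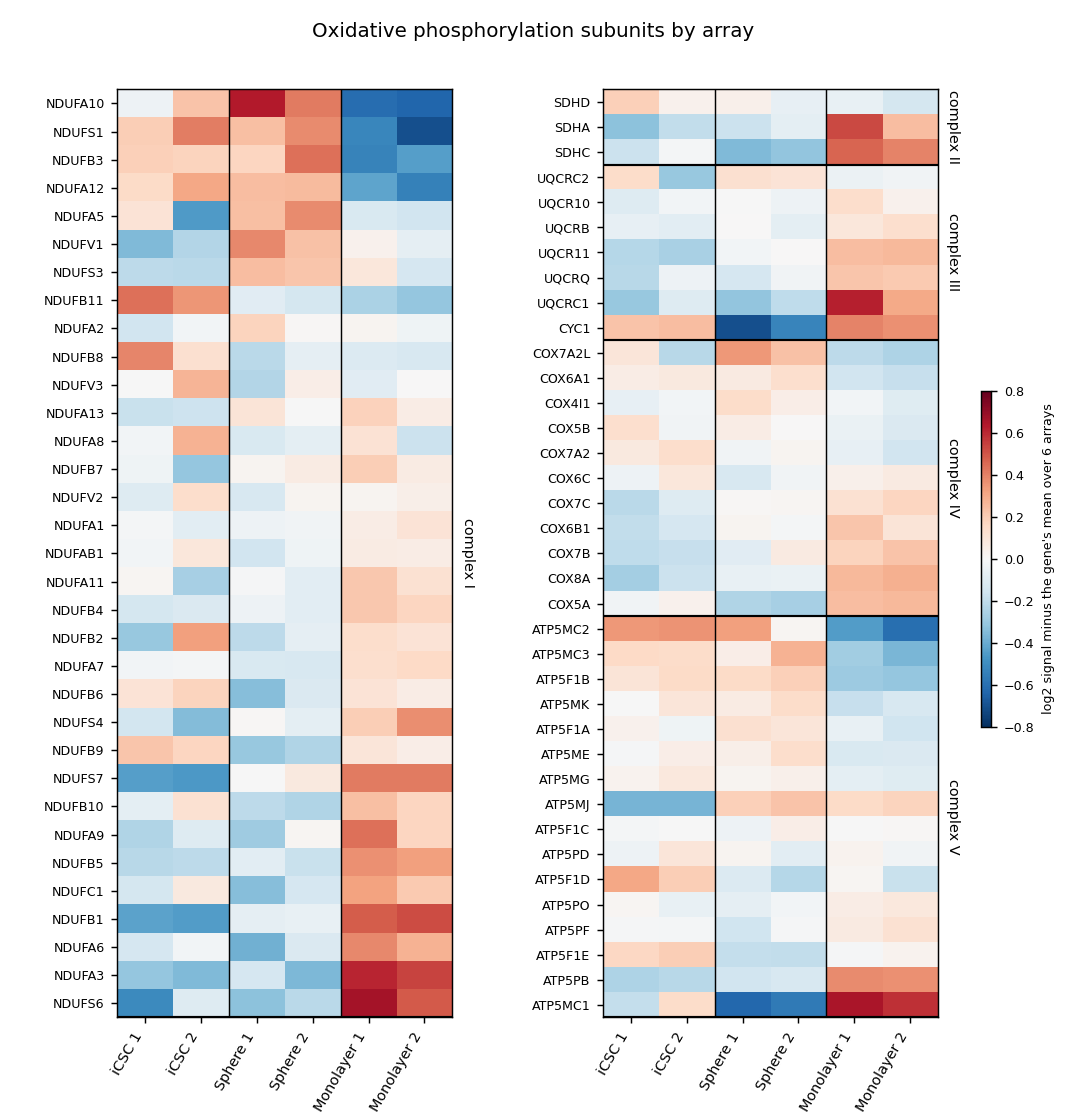
Log2 signal of each of the 70 tested subunits on each array, given as the difference from that gene's mean over the 6 arrays. Columns are the iCSC, Sphere and Monolayer arrays, rows are genes grouped by complex and ordered by their Sphere against Monolayer change; ATP5MC1 and NDUFA10 show the widest spread, and 34 genes span less than 0.5 log2.

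In Sphere against Monolayer, 13 subunits were higher and 25 lower, so 38 of 70 were called, where 59.0% of all genes were called (30.0% higher and 29.1% lower). Their median log2 fold change was -0.12, against 0.01 over all genes. By the brightest probe set, a change of at least 2-fold was called for 2 subunits, ATP5MC1 and NDUFA10, where 28.6% of all genes had one. In iCSC against Monolayer, 14 were higher and 24 lower, where 55.6% of all genes were called (29.0% higher and 26.6% lower), and the median was -0.11 for the subunits and 0.02 for all genes. By the brightest probe set, no subunit was called there with a change of at least 2-fold, against 25.2% of all genes. Some dimmer probe sets passed 2-fold. A dimmer NDUFV3 probe set was called at -2.13 in Sphere and -2.44 in iCSC against Monolayer, while its brightest, at -0.05 and 0.18, was not called. A dimmer probe set of NDUFS1 was called at 1.66 and 2.28 in the same order, and a dimmer probe set of ATP5MC3 at 1.41 in iCSC against Monolayer. In iCSC against Sphere, 9 were higher and 7 lower, where 38.5% of all genes were called (19.3% higher and 19.2% lower), and the median was -0.03 for the subunits and 0.01 for all genes. The subunit share called was nearest to the background in iCSC against Monolayer and below it in iCSC against Sphere. Both spheroid cultures are set against the same Monolayer arrays, so their comparisons share those values.

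The counts changed when single arrays were left out. Each such fit also has fewer arrays from which to estimate the spread, in every comparison. Leaving out a Monolayer array left the fold changes of iCSC against Sphere unchanged, yet some of its calls were lost. A lost call therefore does not by itself show that the call rested on the array left out. In Sphere against Monolayer the lower count was 13 without Monolayer replicate 1, 15 without Monolayer replicate 2 and 16 without Sphere replicate 1, and the higher count was 7 without Monolayer replicate 2. In iCSC against Sphere the counts were 4 higher and 3 lower without Sphere replicate 1, and 5 higher and 3 lower without Sphere replicate 2. In iCSC against Monolayer they were 8 higher and 15 lower without Monolayer replicate 1, and 8 higher and 16 lower without Monolayer replicate 2. Renewed quantile normalization gave 18 higher and 22 lower in Sphere against Monolayer. Calls kept whichever array was left out numbered 7 of 16 in iCSC against Sphere (4 higher, 3 lower), 19 of 38 in Sphere against Monolayer (7 higher, 12 lower) and 20 of 38 in iCSC against Monolayer (8 higher, 12 lower). Calls given below with their own adjusted p are of this kind unless another array dependence is given.

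**Figure D2:**
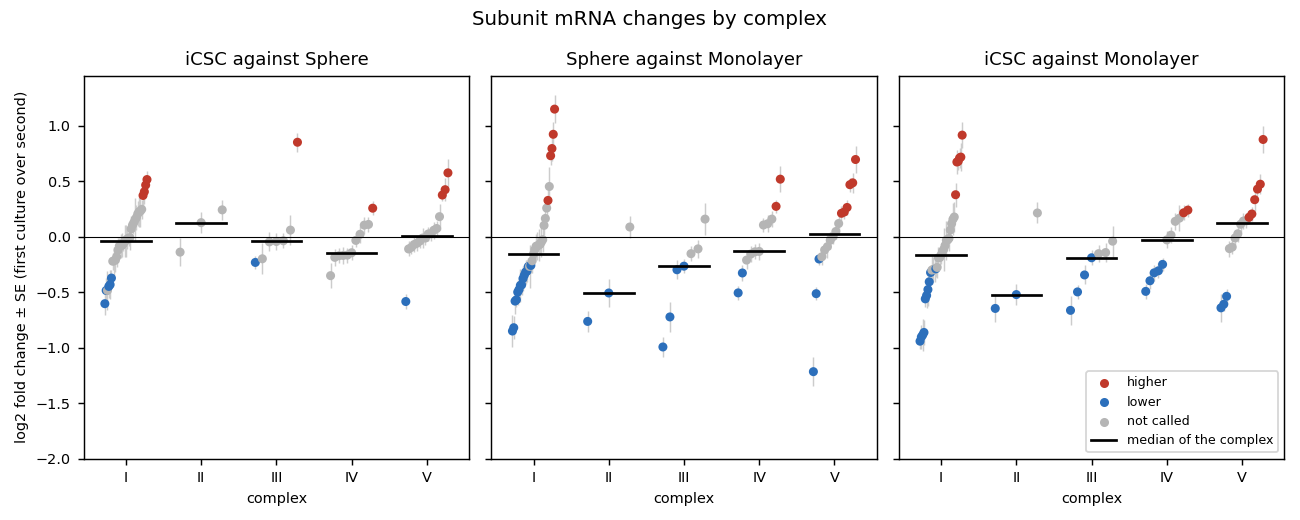
Log2 fold change with its standard error (vertical axis) of every tested subunit, by complex, for iCSC against Sphere, Sphere against Monolayer and iCSC against Monolayer. Red points were called higher, blue lower and grey not called, and the black bar is the median of the complex. For complexes II and III, with 3 and 7 tested subunits, none was called higher in either comparison with Monolayer. Complex V, with 16, held 6 higher and 3 lower in each. Of all genes, 30.0% were higher and 29.1% lower in Sphere, and 29.0% and 26.6% in iCSC, against Monolayer.

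Complex I oxidises NADH and reduces ubiquinone, with a matrix arm that carries the flavin and the iron-sulphur clusters and a membrane arm that pumps protons. Of its 33 tested subunits, 5 were higher and 14 lower in Sphere against Monolayer (median -0.16). In iCSC, 6 were higher and 10 lower against Monolayer (median -0.16), and 4 higher and 5 lower against Sphere (median -0.04). The shares of all genes higher and lower were 30.0% and 29.1%, 29.0% and 26.6%, and 19.3% and 19.2% in the same order. Counts of the other complexes are read beside the same shares. Both arms held calls in each direction in Sphere against Monolayer, with 3 higher and 6 lower of 14 in the matrix arm, and 2 higher and 8 lower of 19 in the membrane arm. Without Monolayer replicate 1 the lower count of complex I was 6 in both comparisons with Monolayer, and without Monolayer replicate 2 or Sphere replicate 1 it was 8 in Sphere. Its counts in iCSC against Sphere were 2 higher and 2 lower without Sphere replicate 1, and 3 and 2 without Sphere replicate 2.

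Among the core subunits of the matrix arm, NDUFS1, the large iron-sulphur protein of the electron path, gave 11.34 and 11.55 in iCSC, 11.38 and 11.52 in Sphere, and 10.61 and 10.44 in Monolayer. All spheroid arrays lay above both Monolayer arrays, and the spheroid cultures overlapped each other. The log2 fold change was 0.92 in Sphere against Monolayer (SE 0.11, adjusted p = 0.000661) and 0.92 in iCSC against Monolayer (SE 0.11, adjusted p = 0.00081), and all 4 of its probe sets that passed the signal limit were called higher in both. NDUFV1, which binds NADH and the flavin, gave 10.67 and 10.80 in iCSC, 11.41 and 11.26 in Sphere, and 11.06 and 10.96 in Monolayer. It was highest in Sphere and lowest in iCSC, with no overlap between cultures, and fell by 0.60 log2 in iCSC against Sphere (SE 0.10, adjusted p = 0.00404). NDUFS7, which holds the last iron-sulphur cluster before ubiquinone, gave 8.44 and 8.42 in iCSC, 8.88 and 8.96 in Sphere, and 9.29 on both Monolayer arrays. The cultures formed 3 separate steps, lowest in iCSC, and the gene was lower in iCSC against Monolayer by a log2 fold change of -0.86 (SE 0.11, adjusted p = 0.000945). Its 2 smaller steps, -0.49 in iCSC against Sphere and -0.38 in Sphere against Monolayer, were called (adjusted p = 0.0159 and 0.0259). The first was not called without either Sphere array (adjusted p = 0.0575 and 0.0854), and the second was not called without any 1 of the Sphere or Monolayer arrays (adjusted p between 0.0653 and 0.117). Over all alternatives it ran from 0.00967 to 0.0854 for the first step and from 0.00989 to 0.117 for the second. The core subunits NDUFS1, NDUFV1 and NDUFS7 therefore each had a different order of cultures. NDUFV2, a core subunit at the NADH-oxidising end, was not called in any comparison (log2 fold changes between -0.09 and 0.07).

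NDUFS6, a zinc-binding accessory subunit of the matrix arm, gave 11.49 and 11.90 in iCSC, 11.67 and 11.79 in Sphere, and 12.67 and 12.49 in Monolayer. Both spheroid cultures lay below Monolayer and overlapped each other, and the log2 fold change was -0.85 in Sphere (SE 0.14, adjusted p = 0.00265) and -0.89 in iCSC (SE 0.14, adjusted p = 0.00252) against Monolayer. NDUFA12, the accessory subunit of the printed chromosome 12 promoter, moved the other way. It gave 12.32 and 12.48 in iCSC, 12.42 and 12.43 in Sphere, and 11.75 and 11.63 in Monolayer, and the log2 fold change was 0.73 in Sphere (SE 0.09, adjusted p = 0.000536) and 0.71 in iCSC (SE 0.09, adjusted p = 0.000727) against Monolayer. NDUFA6, another accessory subunit of this arm, was lower in Sphere against Monolayer (log2 fold change -0.58, SE 0.11, adjusted p = 0.00503), by a probe set that shares sequence with other transcripts (suffix s_at), and its other passing probe set, at -0.29, was not called.

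In the membrane arm, NDUFA10 showed the largest rise of any subunit by the brightest probe set. Its signal was 10.22 and 10.49 in iCSC, 10.90 and 10.68 in Sphere, and 9.65 and 9.62 in Monolayer. The cultures did not overlap, Sphere was highest, and the Sphere level was 2.22-fold that of Monolayer (log2 fold change 1.15, SE 0.13, adjusted p = 0.000424), with 0.72 in iCSC against Monolayer (SE 0.13, adjusted p = 0.00386). NDUFB3 gave 11.68 and 11.66 in iCSC, 11.66 and 11.93 in Sphere, and 10.95 and 11.05 in Monolayer, a log2 fold change of 0.79 in Sphere (adjusted p = 0.000984) and of 0.67 in iCSC (adjusted p = 0.00233) against Monolayer. NDUFB1 stepped downwards through all 3 cultures, with 11.60 and 11.59 in iCSC, 11.96 and 11.97 in Sphere, and 12.52 and 12.56 in Monolayer. Its replicates differed by at most 0.04 log2, and all 3 comparisons were called, at -0.37 in iCSC against Sphere (SE 0.07, adjusted p = 0.00651), -0.57 in Sphere against Monolayer (SE 0.07, adjusted p = 0.000572) and -0.94 in iCSC against Monolayer (SE 0.07, adjusted p = 7.69e-05).

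NDUFB11, an accessory subunit encoded on the X chromosome, stood out in the treated culture, with 12.44 and 12.35 in iCSC, 11.90 and 11.85 in Sphere, and 11.74 and 11.69 in Monolayer. iCSC lay above both other cultures, by 0.52 log2 against Sphere (SE 0.07, adjusted p = 0.00257) and 0.68 against Monolayer (SE 0.07, adjusted p = 0.000488), while Sphere against Monolayer, at 0.16, was not called. NDUFB9 gave 13.83 and 13.78 in iCSC, 13.31 and 13.37 in Sphere, and 13.71 and 13.67 in Monolayer. Sphere was the low culture, with log2 fold changes of 0.47 in iCSC against Sphere (SE 0.06, adjusted p = 0.00188) and -0.35 in Sphere against Monolayer (SE 0.06, adjusted p = 0.00349). NDUFA3, whose promoter is printed above, gave 10.39 and 10.34 in iCSC, 10.56 and 10.33 in Sphere, and 11.30 and 11.23 in Monolayer. It was lower in both spheroid cultures against Monolayer, by a log2 fold change of -0.82 in Sphere (SE 0.10, adjusted p = 0.000752) and -0.90 in iCSC (SE 0.10, adjusted p = 0.000592). NDUFB5 was lower in the same 2 comparisons, at -0.48 (adjusted p = 0.00142) and -0.56 (adjusted p = 0.000825).

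Complex II is also succinate dehydrogenase of the tricarboxylic acid cycle, and it pumps no protons. SDHA gave 9.83 and 9.97 in iCSC, 9.99 and 10.08 in Sphere, and 10.68 and 10.40 in Monolayer. Both spheroid cultures lay below Monolayer, and the log2 fold change was -0.65 in iCSC (SE 0.13, adjusted p = 0.00536) and -0.51 in Sphere (SE 0.13, adjusted p = 0.013) against Monolayer. The Sphere call was not made when Monolayer replicate 1 (-0.37, adjusted p = 0.0923) or Sphere replicate 1 (-0.46, adjusted p = 0.0778) was left out, and over all alternatives its adjusted p ran from 0.008 to 0.0923. SDHC, a membrane anchor, gave 10.52 and 10.67 in iCSC, 10.33 and 10.37 in Sphere, and 11.15 and 11.08 in Monolayer, with a log2 fold change of -0.76 in Sphere (SE 0.09, adjusted p = 0.000615) and -0.52 in iCSC (SE 0.09, adjusted p = 0.00373) against Monolayer. Of its 6 passing probe sets, 4 were called lower in Sphere against Monolayer, and the dimmest pair gave -0.21 and 0.25 without a call. SDHD, the other anchor, gave 11.35 and 11.19 in iCSC, 11.20 and 11.09 in Sphere, and 11.10 and 11.02 in Monolayer, and was not called in any comparison. The 2 anchors of one complex thus differed in their calls, although the difference between them was not tested. SDHB was not analysed here.

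Complex III passes electrons from ubiquinol to cytochrome c. CYC1, which encodes its cytochrome c1, gave 11.63 and 11.65 in iCSC, 10.70 and 10.87 in Sphere, and 11.80 and 11.77 in Monolayer. Sphere alone was low, with a log2 fold change of 0.85 in iCSC against Sphere (SE 0.09, adjusted p = 0.000567) and -0.99 in Sphere against Monolayer (SE 0.09, adjusted p = 0.000142), a level 1.99-fold lower in Sphere, and iCSC against Monolayer was not called at -0.14. UQCRC1, a core protein, was low in both spheroid cultures, with 11.06 and 11.26 in iCSC, 11.05 and 11.16 in Sphere, and 11.99 and 11.67 in Monolayer. Its log2 fold change was -0.72 in Sphere (SE 0.13, adjusted p = 0.00359) and -0.66 in iCSC (SE 0.13, adjusted p = 0.00581) against Monolayer. UQCRC2, the other core protein, was not called, and its iCSC arrays, at 12.66 and 12.21, spread around the Sphere values of 12.64 and 12.62 and the Monolayer values of 12.46 and 12.48. UQCR11, an accessory subunit, was lower in iCSC against Monolayer (-0.50, SE 0.06, adjusted p = 0.000812), by its brighter probe set, and its other probe set, at -0.06, was not called. Against Monolayer, 30.0% of all genes were higher and 29.1% lower in Sphere, and 29.0% and 26.6% in iCSC. Beside these shares, 4 of only 7 subunits of complex III were lower in each comparison with Monolayer and none was higher (medians -0.27 in Sphere and -0.19 in iCSC). Without either Monolayer array 2 were lower in each comparison, and with chromosome medians removed, as described below, 1 was. UQCRFS1 and UQCRH were not analysed here by single-symbol probe sets. A probe set shared by UQCRH and UQCRHL read 14.34 and 14.42 in iCSC, 14.43 and 14.36 in Sphere, and 13.92 and 13.96 in Monolayer. It thus lay higher in both spheroid cultures, but was left out of the tests and of these counts.

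Complex IV, cytochrome c oxidase, reduces oxygen, and several of its small subunits exist in forms specific to tissues. The general forms COX4I1, COX6A1, COX6B1, COX7A2, COX7B and COX8A were all expressed. The alternative forms COX4I2, COX6A2, COX6B2, COX7A1, COX7B2 and COX8C, known from lung, muscle, heart or testis, all stayed under log2 5 on every array, so none of the 3 cultures showed an isoform switch above that limit. COX5A gave 13.52 and 13.58 in iCSC, 13.31 and 13.29 in Sphere, and 13.80 and 13.81 in Monolayer. The cultures did not overlap and Sphere was lowest, at -0.51 against Monolayer (SE 0.06, adjusted p = 0.000572). COX8A gave 12.61 and 12.71 in iCSC, 12.83 on both Sphere arrays, and 13.14 and 13.17 in Monolayer, and was lower in iCSC against Monolayer by a log2 fold change of -0.49 (SE 0.07, adjusted p = 0.00123). The 11 tested genes of this complex include COX7A2L, counted by its name alone, which was 1 of the 2 higher in Sphere against Monolayer. Of these 11, 2 were higher and 2 lower in Sphere against Monolayer (median -0.13). In iCSC, 2 were higher and 5 lower against Monolayer (median -0.03), and 1 higher and 0 lower against Sphere (median -0.14). Without Monolayer replicate 2 the counts were 0 higher and 1 lower in Sphere against Monolayer and 0 higher and 2 lower in iCSC against Monolayer, and without Monolayer replicate 1 they were 1 and 2, and 0 and 3. The gene long called NDUFA4, now COXFA4 and counted with complex IV, falls outside the naming rule, and gave 13.51 and 13.54 in iCSC, 13.27 and 13.40 in Sphere, and 13.28 and 13.36 in Monolayer.

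Complex V differed from the others in that its median was not below 0 in either comparison with Monolayer, at 0.02 in Sphere and 0.13 in iCSC, with 6 higher and 3 lower of 16 in each. Without either Monolayer array 3 were higher in each comparison, and without Sphere replicate 2 the higher count was 3 in Sphere, and without either Sphere array it was 3 in iCSC against Monolayer. With chromosome medians removed, as described below, 1 was higher and 2 lower in Sphere (median -0.0072), and 3 higher and 2 lower in iCSC. In iCSC against Sphere, 3 were higher and 1 lower (median 0.01), and 1 was higher without either Sphere array. The difference between complexes was not tested. In the catalytic F1 head, ATP5F1B, the beta subunit that makes ATP, gave 13.21 and 13.26 in iCSC, 13.25 and 13.29 in Sphere, and 12.81 and 12.79 in Monolayer. The spheroid cultures overlapped and lay above Monolayer, by 0.47 in Sphere (SE 0.06, adjusted p = 0.000944) and 0.43 in iCSC (SE 0.06, adjusted p = 0.00159). ATP5F1C, the rotor shaft, stayed between 13.13 and 13.22 on all 6 arrays. ATP5F1E, the small epsilon subunit, was higher in iCSC against Sphere, with 14.68 and 14.72 in iCSC, 14.33 and 14.32 in Sphere, and 14.51 and 14.54 in Monolayer (log2 fold change 0.38, SE 0.06, adjusted p = 0.00273).

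The 3 genes for the c subunit encode the same mature ring protein behind different import sequences, and their calls against Monolayer lay in opposite directions. ATP5MC1 gave 10.13 and 10.46 in iCSC, 9.69 and 9.75 in Sphere, and 10.97 and 10.90 in Monolayer. Sphere was lowest, iCSC lay between, and no arrays of different cultures overlapped. The Sphere level was 2.32-fold lower than that of Monolayer (log2 fold change -1.22, SE 0.13, adjusted p = 0.000317). ATP5MC2 went the other way, with 12.62 and 12.63 in iCSC, 12.60 and 12.29 in Sphere, and 11.83 and 11.67 in Monolayer. It was higher than Monolayer by 0.70 in Sphere (SE 0.12, adjusted p = 0.00265) and 0.88 in iCSC (SE 0.12, adjusted p = 0.00112). ATP5MC3 gave 13.67 and 13.66 in iCSC, 13.56 and 13.79 in Sphere, and 13.23 and 13.15 in Monolayer. It was higher by 0.49 in Sphere (SE 0.09, adjusted p = 0.00357) and 0.47 in iCSC (SE 0.09, adjusted p = 0.0045) against Monolayer, and all 3 of its passing probe sets were called higher in both comparisons. With chromosome medians removed, ATP5MC2 was at 0.21 in Sphere (adjusted p = 0.166) and 0.34 in iCSC (adjusted p = 0.0422) against Monolayer, and ATP5MC3 at 0.16 and 0.18 (adjusted p = 0.172 and 0.154). ATP5MC1 was also called lower in iCSC against Monolayer (-0.64, adjusted p = 0.00597) and higher in iCSC against Sphere (0.58, adjusted p = 0.014). The first was not called when Monolayer replicate 1 was left out (adjusted p = 0.0535, range over alternatives 0.00185 to 0.0535), and the second when Sphere replicate 1 or 2 was (adjusted p = 0.0806 and 0.0604, range 0.00389 to 0.0836).

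**Figure D3:**
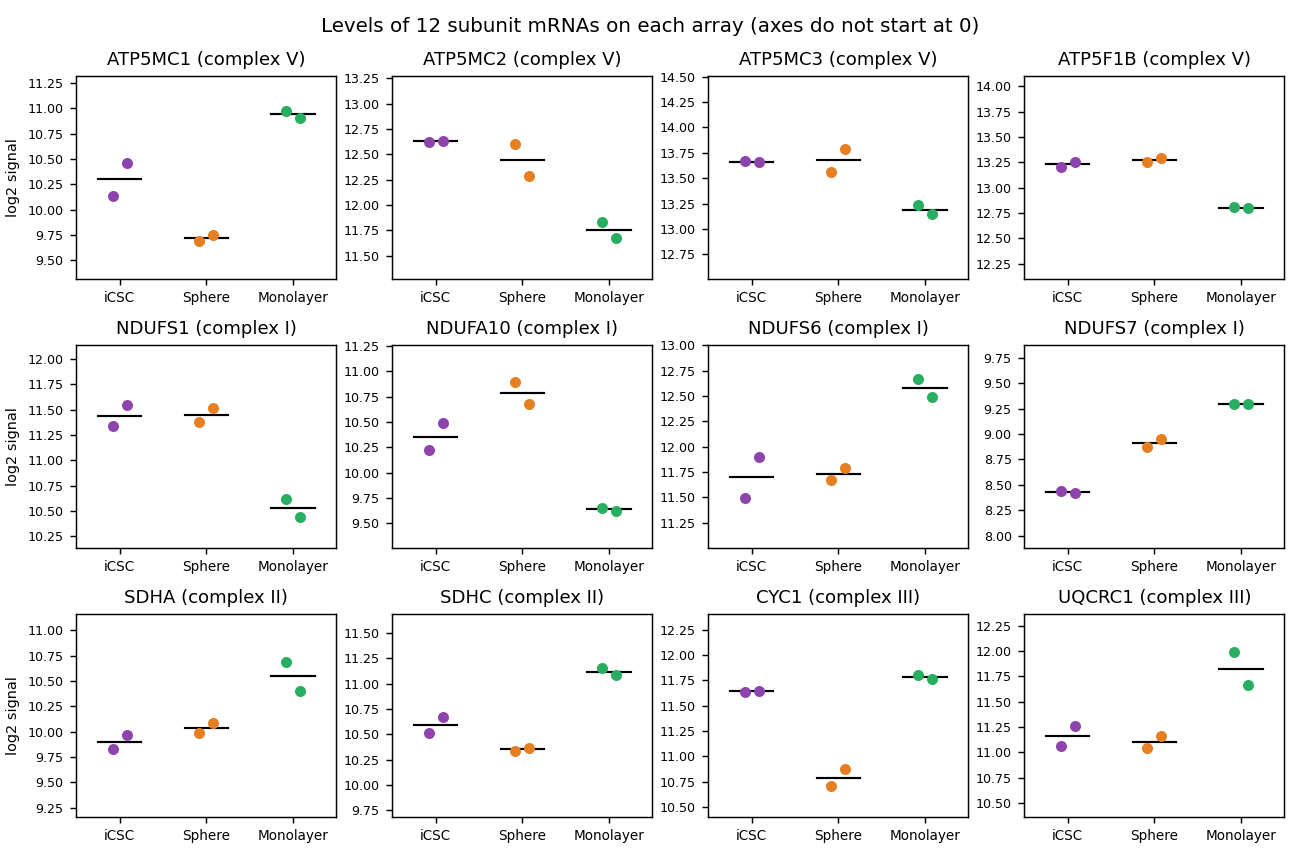
Log2 signal on each array (points) and mean of the culture (bars) for 12 subunits, in iCSC, Sphere and Monolayer; each axis spans 2 log2 units around the gene's mean and does not start at 0. ATP5MC1 is low in Sphere while ATP5MC2 and ATP5MC3 are high in both spheroid cultures, and CYC1 is low in Sphere only.

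In the peripheral stalk, which holds the head still, ATP5PB (subunit b) gave 13.62 and 13.64 in iCSC, 13.71 and 13.74 in Sphere, and 14.24 and 14.23 in Monolayer. It was lower in both spheroid cultures, by a log2 fold change of -0.51 in Sphere (SE 0.06, adjusted p = 0.000406) and -0.61 in iCSC (SE 0.06, adjusted p = 0.000243) against Monolayer. The other 3 stalk subunits, ATP5PD, ATP5PF and ATP5PO, were not called in any comparison. Of the small membrane subunits, ATP5MJ gave 12.16 on both iCSC arrays, 12.72 and 12.76 in Sphere, and 12.68 and 12.71 in Monolayer, so iCSC alone was low, by -0.58 against Sphere (SE 0.06, adjusted p = 0.000808) and -0.54 against Monolayer (SE 0.06, adjusted p = 0.000702). Its other passing probe set was also lower in iCSC against Sphere (-0.51, adjusted p = 0.00848) but gave 0.10 in iCSC against Monolayer and a call of 0.61 in Sphere against Monolayer (adjusted p = 0.00203), so the 2 probe sets differed on the comparisons with Monolayer. ATP5MF had a single-symbol probe set under log2 5 on all arrays, while a probe set shared with ARMC2-AS1 read 13.01 and 13.34 in iCSC, 12.92 and 12.99 in Sphere, and 13.26 and 13.24 in Monolayer. ATP5IF1, the inhibitor of ATP hydrolysis by complex V, gave 10.45 and 10.29 in iCSC, 10.17 and 10.19 in Sphere, and 10.51 and 10.45 in Monolayer. Its call in Sphere against Monolayer (-0.30, adjusted p = 0.034) did not survive leaving out any 1 of the Sphere or Monolayer arrays.

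The chromosome on which a subunit gene lies moved with its change. Across the 70 subunits, the log2 fold change had a Pearson correlation of 0.537 with the median of all tested genes on the same chromosome in iCSC against Sphere, 0.595 in Sphere against Monolayer and 0.648 in iCSC against Monolayer (Spearman 0.561, 0.584 and 0.636). These are descriptions across genes, which share arrays and chromosome medians and are no independent replicates. In Sphere against Monolayer the 569 tested genes of chromosome 12 had a median of 0.49, and 4 of its 5 subunits were higher (ATP5F1B, ATP5MC2, COX6A1 and NDUFA12), COX6A1 not without Monolayer replicate 2. The fifth, NDUFA9, went against its chromosome with a log2 fold change of -0.44, and was not called without Sphere replicate 1 or either Monolayer array. Chromosome 2 had a median of 0.29 over 744 genes, and 5 of its 6 subunits were higher (ATP5MC3, COX7A2L, NDUFA10, NDUFB3 and NDUFS1), COX7A2L not without Sphere replicate 1 or either Monolayer array. On chromosome 3, with a median of -0.46 over 585 genes, all 3 subunits were lower (NDUFB4, NDUFB5 and UQCRC1), NDUFB4 not without Sphere replicate 2 or either Monolayer array. On chromosome 14, with a median of -0.67 over 343 genes in iCSC against Sphere, both subunits, ATP5MJ and NDUFB1, were lower.

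Several subunit calls were not made once each gene was set against the median of its own chromosome. In iCSC against Sphere 6 of 16 calls were kept in their direction, 1 became a call in the opposite direction (NDUFB1) and 6 were gained, which gave 10 higher and 3 lower in all. In Sphere against Monolayer 19 of 38 were kept, 2 turned (NDUFB4 and COX6A1) and 3 were gained, and in iCSC against Monolayer 19 of 38 were kept, 1 turned (COX6A1) and 7 were gained. ATP5F1B was then at -0.02 in Sphere against Monolayer and ATP5MJ at 0.07 in iCSC against Sphere, neither of them called. NDUFB1 stood at 0.28 in iCSC against Sphere, where its sign turned. Also not called on this scale in Sphere against Monolayer were ATP5MC2 (0.21), ATP5MC3 (0.16), COX5A (-0.07), NDUFB5 (-0.02), NDUFB9 (-0.14) and UQCRC1 (-0.27), in iCSC against Monolayer ATP5F1B (-0.11), ATP5MC3 (0.18), ATP5MJ (0.08), NDUFA12 (0.17), NDUFB5 (-0.15), SDHA (-0.25) and UQCRC1 (-0.25), and in iCSC against Sphere ATP5F1E (0.18). ATP5MC1 kept -1.10, CYC1 -0.78, SDHC -0.81, NDUFS6 -0.76, NDUFA3 -0.72, NDUFA10 0.83 and NDUFS1 0.60 in Sphere against Monolayer, and NDUFB11 kept 0.56 in iCSC against Sphere, all still called. NDUFA9 reached -0.93 in Sphere against Monolayer on this scale. Why chromosomes shifted between the cultures was not tested.

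**Figure D4:**
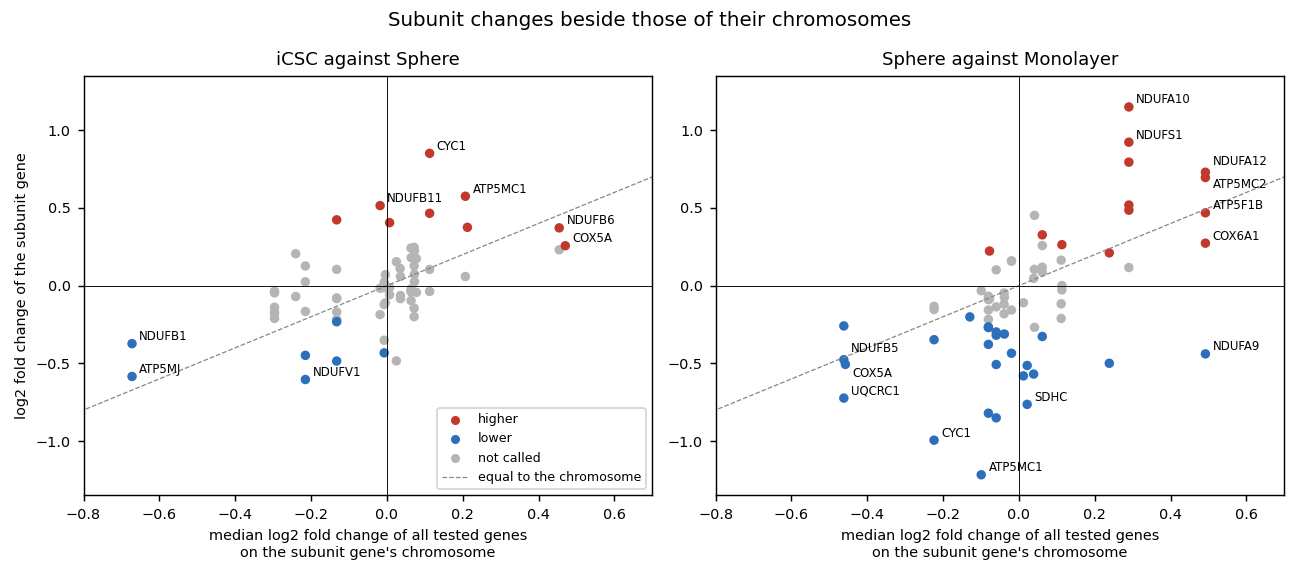
Log2 fold change of each tested subunit (vertical axis) against the median log2 fold change of all tested genes on its chromosome (horizontal axis), in iCSC against Sphere and in Sphere against Monolayer. Red points were called higher, blue lower and grey not called, and the dashed line marks equality; the chromosome 12 genes lie at 0.49 and the chromosome 14 genes at -0.67 on the horizontal axis, while ATP5MC1 and CYC1 lie far below the line in Sphere against Monolayer.

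The subunits encoded in mitochondrial DNA, which join the nuclear ones in complexes I, III, IV and V, were read for 7 genes. ATP6 of complex V gave 16.58 and 16.54 in iCSC, 16.40 and 16.52 in Sphere, and 16.01 and 16.32 in Monolayer. ND6 of complex I gave 7.83 and 8.49 in iCSC, 7.24 and 7.53 in Sphere, and 8.71 and 8.61 in Monolayer, and was lower in Sphere against Monolayer (-1.28, SE 0.24, adjusted p = 0.00399). The other calls in this group did not hold when single arrays were left out, namely ATP6 in Sphere against Monolayer (0.29, adjusted p = 0.0498, from 0.0147 to 0.27 over the 6 fits) and in iCSC against Monolayer (0.40, adjusted p = 0.0187, from 0.00976 to 0.0951), and ND6 in iCSC against Sphere (0.78, adjusted p = 0.0427, from 0.00964 to 0.207). Signals of COX1, COX2, ND2 and ND4 lay between 14.90 and 16.58, and whether such high signals compress differences was not tested. COX1, COX2, COX3, ND2 and ND4 were not called, and Monolayer replicate 1 was the lowest array for each of them. Left out, that array changed the log2 fold change of COX3 in Sphere against Monolayer to 0.17, against 0.92 with all arrays.

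Most calls among the genes that build, assemble and regulate the respiratory chain were lower in the comparisons with Monolayer, where 30.0% of all genes were higher and 29.1% lower in Sphere, and 29.0% higher and 26.6% lower in iCSC. Of 45 tested assembly factors, 6 were higher and 20 lower in Sphere (median -0.29), and 6 higher and 25 lower in iCSC (median -0.42). NDUFAF3, a complex I assembly factor, gave 8.96 and 8.90 in iCSC, 8.58 and 8.39 in Sphere, and 10.39 and 10.35 in Monolayer (-1.89 in Sphere against Monolayer, adjusted p = 2.78e-05). SDHAF4, an assembly factor of complex II, was higher, with 7.98 and 7.08 in iCSC, 8.49 and 8.40 in Sphere, and 6.34 and 6.18 in Monolayer (2.18 in Sphere against Monolayer, adjusted p = 0.000903). Of 75 mitochondrial ribosomal protein genes, which serve the translation of the mitochondrially encoded subunits, 6 were higher and 44 lower in Sphere (median -0.39), and 5 higher and 41 lower in iCSC (median -0.34). MRPS25 fell by 1.90 log2 in Sphere against Monolayer (adjusted p = 0.000312). Of 19 biogenesis regulators, 1 was higher and 8 lower in Sphere, and 2 higher and 8 lower in iCSC. TEFM, an elongation factor of mitochondrial transcription, fell by 1.72 log2 in Sphere against Monolayer (adjusted p = 0.000153), NRF1 itself was not called in any comparison, and PPARGC1A stayed under log2 5 on all arrays. No list was tested against the subunits.

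The smaller lists are read against the same shares of all genes. Of 15 electron carrier and coenzyme Q genes, 1 was higher and 7 lower in each comparison with Monolayer. The tricarboxylic acid cycle, which feeds the chain, gave 2 higher and 4 lower of 11 in Sphere, and 1 higher and 3 lower in iCSC. CS, citrate synthase, gave 12.19 and 12.29 in iCSC, 12.29 and 12.21 in Sphere, and 11.63 and 11.55 in Monolayer (0.66 in Sphere against Monolayer, adjusted p = 0.000584). IDH3A, a subunit of the NAD-dependent isocitrate dehydrogenase, fell by 1.40 log2 in Sphere against Monolayer (adjusted p = 0.000145). Among 10 genes of pyruvate entry, 3 were higher and 2 lower in Sphere, and 4 higher and 5 lower in iCSC. PDP1, a phosphatase that activates pyruvate dehydrogenase, gave 9.97 and 9.91 in iCSC, 9.96 and 10.05 in Sphere, and 12.22 and 12.27 in Monolayer (-2.24 in Sphere against Monolayer, adjusted p = 3.84e-06). PDK3, a kinase that inhibits it, gave 9.14 and 9.00 in iCSC, 10.21 and 10.05 in Sphere, and 8.35 and 8.30 in Monolayer (1.81 in Sphere against Monolayer, adjusted p = 3.75e-05). Of 9 outer membrane and carrier genes, 3 were higher and 3 lower in Sphere, and 2 higher and 3 lower in iCSC. In iCSC against Sphere the counts were 9 higher and 11 lower for assembly factors, 8 and 10 for the mitochondrial ribosome, 3 and 1 for the regulators, 3 and 2 for the electron carriers, 1 and 2 for the tricarboxylic acid cycle, 1 and 2 for pyruvate entry, and 0 and 2 for the outer membrane, where 19.3% of all genes were higher and 19.2% lower. Without Sphere replicate 1 they were 5 and 4 for assembly factors and 1 and 2 for the mitochondrial ribosome, without Sphere replicate 2 they were 4 and 5, and 6 and 2, and without iCSC replicate 2 the ribosome gave 4 and 13. The ribosome gave 11 and 4 without iCSC replicate 1, and 7 and 3 without either Monolayer array. The higher count of assembly factors in iCSC against Monolayer was 1 without either Monolayer array, and that of pyruvate entry was 1 without Monolayer replicate 2. Over all the fits without 1 array, the lower count of the mitochondrial ribosome ran from 27 to 46 in Sphere and from 23 to 41 in iCSC against Monolayer, and that of the assembly factors from 12 to 21 and from 11 to 25.

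**Figure D5:**
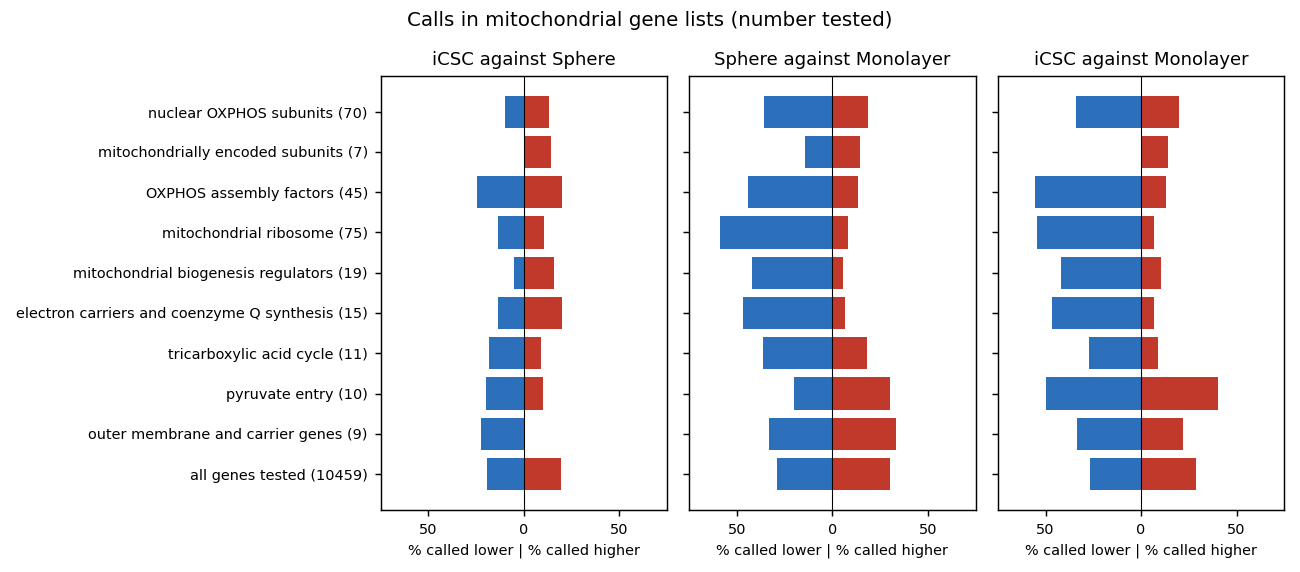
Percentage of the tested genes of each list called higher (red, to the right) or lower (blue, to the left) in iCSC against Sphere, Sphere against Monolayer and iCSC against Monolayer, with the number tested in brackets. In Sphere against Monolayer the blue bar is 58.7% for the mitochondrial ribosome, 44.4% for assembly factors and 35.7% for the nuclear subunits, beside 29.1% for all genes.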

How the data were processed

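Each probe set has 1 deposited log2 value for each array. GCRMA and Partek are named for it, per the submitters' processing notes, with versions not given in the sources used here. The GCRMA method corrects each probe for background predicted from its bases and equalises arrays, so unexpressed probe sets lie in a narrow low band and a shift common to all genes is removed. Array medians lay between 2.78 and 2.83. Of 54675 probe sets, 41091 carried 1 gene symbol (platform annotation, updated through RefSeq GRCh38.p14) and 1801 carried several, which were left out of the tests. A probe set passed with log2 of at least 5 on at least 2 arrays (18059 did), and the brightest passing one per gene was used.

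Groups came from the labels. limma 3.58.1 (R 4.3.3) fitted a mean per culture to all 6 arrays (3 residual degrees of freedom, moderated variances with a trend), two-sided, with Benjamini-Hochberg adjustment over 10459 genes. Calls required an adjusted p under 0.05, and SE is the model's standard error. The procedure was tested on simulated data. Figures used matplotlib 3.10.9 (Python 3.11.15). Alternatives, 18 in number, were other filters and a floor, renewed quantile normalization, median centring, all probe sets averaged, no x_at or s_at probe sets (which may cross-hybridise), no trend, no moderation, only 2 cultures fitted, chromosome medians removed, a replicate block and leaving out each array. Named genes were drawn, per complex and comparison, from up to 3 called subunits with the largest change in each direction. The rule also gave core and F1 subunits and isoforms whatever their values, and up to 4 genes per direction of each other list. The text names part of these, and NDUFS3, ATP5F1A and ATP5F1D, which the rule gives, are not described above. NDUFB5, NDUFA9 and ATP5PD, ATP5PF and ATP5PO, the leukocyte marker PTPRC, and the carriers of printed or chromosome-wide patterns were named after their values were seen. The members and lists were chosen with earlier results of these data known. The NRF1 motif was searched first with a further G before it and was shortened for reasons of format after those values were seen, and both sets of shares are given.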

Additional observations from a re-analysis of the deposited data

How the results depend on the processing

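Among 123 gene and comparison pairs, 1897 of the values recomputed under 18 alternatives kept their direction and side of the threshold, 52 changed sign without a call in either fit, 175 lost a call, 32 gained one and 16 changed sign with a call in at least 1 fit, and 25 of 73 calls were kept under every alternative. Without x_at and s_at probe sets 46 subunits were tested, and without a filter 77, against 70 in the main fit. Counts under these 2 settings are therefore out of other totals. In iCSC against Sphere the higher count was 3 without x_at and s_at probe sets. The lower count there was 4 with only the 2 cultures fitted and 3 with chromosome medians removed, and the median was 0.0171 with chromosome medians removed. In Sphere against Monolayer the higher count was 8 without the trend and 7 with chromosome medians removed, the lower count 14 without x_at and s_at probe sets, and the median -0.0859 without a filter, -0.0505 after quantile normalization, -0.15 after centring and -0.0589 with chromosome medians removed. In iCSC against Monolayer the higher count was 9 without a filter, 9 without x_at and s_at probe sets and 8 without the trend, the lower count 12 without x_at and s_at probe sets, and the median -0.0511 without a filter, -0.0529 after quantile normalization, -0.0482 without such probe sets and -0.15 after centring. Leaving out 1 array gave 4 to 10 higher, 3 to 9 lower and a median of -0.0551 to 0.00288 in iCSC against Sphere, 7 to 14 higher, 13 to 27 lower and a median of -0.14 to -0.11 in Sphere against Monolayer, and 8 to 13 higher, 15 to 27 lower and a median of -0.14 to -0.10 in iCSC against Monolayer.

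The sign turned with chromosome medians removed for ATP5F1B (-0.0221 in Sphere and -0.11 in iCSC against Monolayer), ATP5MJ (0.0725 against Sphere and 0.0802 against Monolayer in iCSC), COX6A1 (-0.22 in Sphere and -0.29 in iCSC against Monolayer), UQCRQ (in iCSC, 0.26 against Sphere and 0.0542 against Monolayer), and COX5A (-0.19) and NDUFB1 (0.28) in iCSC against Sphere. Without x_at and s_at probe sets, where another probe set stands for the gene, it turned for ATP5MJ (0.10) and NDUFA6 (0.0101) in iCSC against Monolayer, SDHC (0.25 in Sphere and 0.43 in iCSC against Monolayer) and UQCR11 (0.0404 in iCSC against Sphere), and averaging probe sets turned ATP5MC3 (0.27 in iCSC against Sphere). For the other changes the cause was not tested.

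With the replicate number as a block the counts were 9 higher and 7 lower, 13 and 25, and 14 and 24 in iCSC against Sphere, Sphere against Monolayer and iCSC against Monolayer, and 15, 37 and 37 of the calls were shared with the fit without the block. The labels leave unsaid whether the replicate numbers pair arrays of different cultures. The correlation of replicate differences was 0.173 for iCSC and Sphere, -0.053 for iCSC and Monolayer and 0.0186 for Sphere and Monolayer. These values are a description and do not settle the pairing. With 2 arrays per culture, small differences could not be resolved, and signals near log2 5 carry little above background.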
